A study of Mus musculus with 27 samples.

Results

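The 8 genes described here, Dppa2, Dppa3, Dppa4, Dppa5a, Tcl1, Eras, Fbxo15 and Sall4, were taken by symbol from a table of 38582 genes, and all 8 were found in it. They are effectors of the mouse embryonic stem (mES) cell state: proteins made in pluripotent cells, most of them silent in somatic tissues, that act on chromatin, RNA, signalling or protein turnover. The study asked how WDR43, a WD-repeat protein best known as a component of the small-subunit processome of the nucleolus, acts on chromatin and on RNA polymerase II (Pol II) in mES cells. All cells were grown in serum medium with leukemia inhibitory factor. RNA came from cells labelled wildtype carrying a control short hairpin (shCtl, 2 libraries) or a hairpin against Wdr43 (shWDR43, 2 libraries), and the same 2 conditions were used for chromatin immunoprecipitation (ChIP) of 3 forms of Pol II with 2 libraries each. FLAG ChIP of WDR43 was made in cells labelled Fbio-tagged WDR43 treated with DMSO, with DRB (an inhibitor of the kinases that release paused Pol II) or with ActD, and in samples labelled FB and cFB-KI, with 1 library each. The number of hairpins, the time after knockdown, the drug doses and whether the lines were clonal are not stated in the labels. Values for 21 of the 27 samples were used.

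The Pol II antibodies recognise stages of transcription. Hypophosphorylated Pol II (hypoP) is the form recruited to promoters, phosphorylation of serine 5 of the C-terminal repeat (Ser5P) accompanies initiation, and phosphorylation of serine 2 (Ser2P) builds up as the polymerase elongates and is often highest near the 3′ end of a gene. Among the 8 genes, Dppa2 and Dppa4 encode SAP-domain proteins that bind each other and chromatin and prime developmental and early embryonic genes. Dppa3 (also called Stella) is a maternal and germ cell factor that restrains DNA methylation through UHRF1. Sall4 is a zinc finger transcription factor that recruits the NuRD deacetylase complex. Dppa5a is a small KH-domain RNA-binding protein. Tcl1 is a cofactor that raises the activity of AKT kinases, Eras is a Ras-like protein that is active without a growth signal and stimulates PI3 kinase, and Fbxo15 is an F-box protein, the substrate-binding subunit of an SCF ubiquitin ligase, whose promoter was the reporter in early reprogramming experiments.

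Tcl1 and Eras are the genes on which the RNA results turn, and they were the 2 of the 8 genes whose promoter could be read from the RefSeq promoter table (build GRCm38.p6, minus strand for both). The 250 bases before each transcription start are printed 5′ to 3′, at chr12:105222738-105222987 for Tcl1 and chrX:7928608-7928857 for Eras. Capitals mark GC boxes (GGGCGG, or CCGCCC on the other strand) and, in Eras, the letters ATTTGC.
Tcl1: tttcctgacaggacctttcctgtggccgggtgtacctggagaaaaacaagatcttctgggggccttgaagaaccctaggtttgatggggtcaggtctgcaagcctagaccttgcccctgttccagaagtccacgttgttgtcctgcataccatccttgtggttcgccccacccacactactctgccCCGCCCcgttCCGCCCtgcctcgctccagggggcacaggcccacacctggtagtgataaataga
Eras: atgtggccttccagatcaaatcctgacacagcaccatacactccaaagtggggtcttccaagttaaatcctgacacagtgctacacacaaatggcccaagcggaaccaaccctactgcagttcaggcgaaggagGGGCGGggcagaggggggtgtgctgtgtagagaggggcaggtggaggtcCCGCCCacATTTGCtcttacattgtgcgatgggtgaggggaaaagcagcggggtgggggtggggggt
Each promoter held 2 GC boxes, whose first letters lay 64 and 54 bases before the start in Tcl1 and 116 and 67 bases before it in Eras. A GC box was found in 32.7% of 32851 RefSeq promoters of the same length. The letters ATTTGC, which lie on the reverse strand of the octamer ATGCAAAT, matched at 59 bases before the start in Eras and nowhere in Tcl1, and in 9.26% of all promoters. Neither promoter held the full octamer (1.60% of all promoters), the TATA box letters TATAAA (12.4%), the box CCAAT (33.8%) or the E-box CACGTG (6.02%), searched on both strands. The GC content was 57.6% for Tcl1 and 58.0% for Eras, against a median of 52.4% for all promoters.

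RNA was given on a scale taken to be fragments per transcript length and library size (FPKM), on which levels of different genes can be compared. This unit was inferred from the submitters' list of tools. The table is named as spike-in RNA-seq, but how a spike-in entered its scaling is not stated. Of the 38582 genes, 12452 had a mean of at least 1 FPKM over the 4 libraries and were tested, with all 8 genes of interest among them. The knockdown was visible in the target: Wdr43 measured 82.3 and 78.2 FPKM in shCtl and 21.2 and 20.7 in shWDR43, a log2 fold change of -1.89 ± 0.12 (SE). Summed FPKM over all genes was 1015232 and 1040749 in shCtl and 687051 and 681178 in shWDR43, so most genes were lower on the deposited scale, with a median log2 fold change of -0.39 (quartiles -0.71 and -0.06). In all, 5322 genes were called lower and 760 higher by limma at an adjusted p under 0.05. Centring each library on its median removed a shift of 0.33 on the log2 scale and gave 2606 lower and 1615 higher, and both scales are given for each gene. The depth of the libraries is unknown, since the table holds no counts. The table's header calls the 2 libraries of each RNA group biological replicates.

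Of the 8 genes, 6 fell after Wdr43 knockdown, none rose and 2 did not pass the test. Tcl1 and Eras fell to 28.0% and 32.8% of their control level, and Dppa5a, Sall4, Dppa2 and Dppa4 fell to between 55.4% and 58.2%. Fbxo15 was the exception in direction, at 94.9 FPKM against 80.6. Among all genes tested 42.7% were called lower and 6.1% higher. The median log2 fold change of the 8 genes was -0.80, against -0.39 for all genes tested. After centring, 5 of the 8 were called lower and 1, Fbxo15, was called higher, against 20.9% and 13% of genes tested. With any 1 of the 4 libraries left out, 1 group held only 1 library, which is too few for calls, and all 8 log2 fold changes kept their sign. Without the filter on low values, 38582 genes were tested and 633 of them were called lower. Eras and Sall4 were the 2 of the 8 still called. The limma adjusted p was then 0.0894 for Tcl1, 0.0852 for Dppa4, 0.124 for Dppa5a and 0.299 for Dppa2. In bulk RNA, fewer cells that express a gene and less RNA per cell cannot be told apart.

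**Figure D1:**
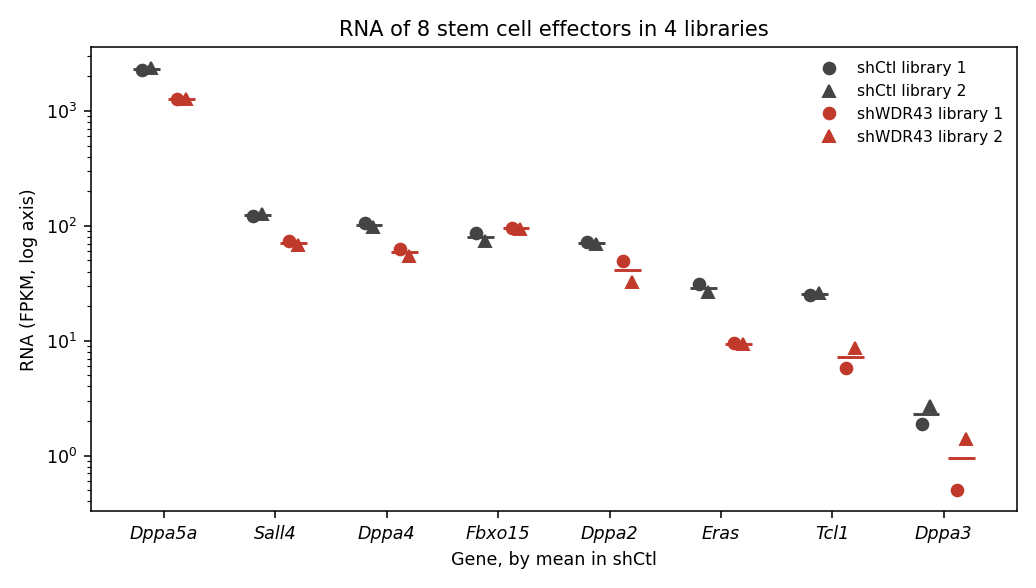
RNA level (FPKM, log axis) of each gene in the 2 shCtl (grey) and 2 shWDR43 (red) libraries, with bars at the group means. The shWDR43 points lie below the shCtl points for every gene except Fbxo15, where they lie above, and levels run from about 2302 for Dppa5a to 2.30 for Dppa3 in shCtl.

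The signalling genes changed most. Tcl1 measured 25.2 and 26.2 FPKM in shCtl and 5.8 and 8.6 in shWDR43. Every control library was above every knockdown library, with means of 25.7 ± 0.707 and 7.20 ± 1.98 (SD, n = 2 libraries each). The log2 fold change on the log2(FPKM + 1) scale was -1.72 ± 0.18 (SE; 95% interval -2.16 to -1.29), with a Benjamini-Hochberg adjusted p of 0.00130 in limma. Only 0.642% of the genes tested had a lower log2 fold change. Eras measured 30.9 and 26.7 FPKM in shCtl and 9.5 and 9.4 in shWDR43, again without overlap. Its means were 28.8 ± 2.97 and 9.45 ± 0.0707, and its log2 fold change was -1.51 ± 0.14 (interval -1.83 to -1.18; limma adjusted p = 0.00108), with 1.46% of genes lower. Both calls held after centring, at -1.39 (limma adjusted p = 0.00346) for Tcl1 and -1.18 (limma adjusted p = 0.00126) for Eras. The ratio of Eras to Tcl1 within a library, which does not depend on how libraries were scaled, was 1.23 and 1.02 in shCtl and 1.64 and 1.09 in shWDR43, so the ranges overlapped (exact two-sided permutation p = 0.667).

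The chromatin genes fell by less than Tcl1 and Eras. Sall4, the zinc finger factor, measured 121.5 and 126.8 FPKM in shCtl and 73.4 and 68.8 in shWDR43. Its log2 fold change was -0.80 ± 0.12 (interval -1.07 to -0.52; limma adjusted p = 0.00265). Dppa4 measured 105.3 and 98.0 FPKM in shCtl and 62.8 and 55.2 in shWDR43, and changed by -0.78 ± 0.13 (interval -1.08 to -0.47; limma adjusted p = 0.00371). Both genes had control libraries well above the knockdown libraries, and both remained called on the centred scale, at -0.47 and -0.45. Dppa2, the partner of Dppa4, measured 72.6 and 68.9 FPKM in shCtl and 49.9 and 32.5 in shWDR43, without overlap but with the widest spread between knockdown libraries, relative to their mean, of the 6 called genes. Its log2 fold change of -0.80 ± 0.20 (interval -1.27 to -0.32) passed the test with a limma adjusted p of 0.0165. After centring it was -0.47 with an adjusted p of 0.0665, which did not pass. Dppa2 was present at 0.689 and 0.703 of the Dppa4 level in shCtl and at 0.795 and 0.589 in shWDR43, so the proportion of the partners in the knockdown libraries lay on either side of the controls.

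Dppa3 was the least abundant of the 8 and did not pass the test. It measured 1.9 and 2.7 FPKM in shCtl and 0.5 and 1.4 in shWDR43, and the groups did not overlap. The log2 fold change was -0.79 ± 0.28 with a 95% interval of -1.45 to -0.12 and a limma adjusted p of 0.0536. At this level the added 1 FPKM compresses the change. Centring gave -0.46 (limma adjusted p = 0.292). The RefSeq gene table lists a Dppa3 pseudogene, and how reads shared with it were assigned is not stated, so the level of Dppa3 is uncertain for that reason too.

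Dppa5a was the most abundant, above 99.6% of the genes tested in shCtl. It measured 2256.7 and 2346.6 FPKM in shCtl and 1276.6 and 1272.2 in shWDR43, with close agreement between libraries of a group. The means were 2302 ± 63.6 and 1274 ± 3.11, and the log2 fold change was -0.85 ± 0.09 (interval -1.06 to -0.64; limma adjusted p = 0.00121). The centred value was -0.52 (limma adjusted p = 0.00616). Dppa5a supplied between 81.1% and 84.7% of the summed FPKM of the 8 genes in each library. Pseudogene copies named Dppa5b and Dppa5c are in the RefSeq gene table, so its level too may hold reads that copies share.

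Fbxo15 stood apart from the other 7. It measured 87.5 and 73.6 FPKM in shCtl and 95.8 and 94.0 in shWDR43, so both knockdown libraries lay above both controls. The log2 fold change of 0.24 ± 0.13 (interval -0.07 to 0.55) did not pass, with a limma adjusted p of 0.171. Centred, it was 0.57 and was called higher (limma adjusted p = 0.00822). The sign was the same on both scales. Within a library, the ratio of Fbxo15 to Sall4 was 0.720 and 0.580 in shCtl and 1.31 and 1.37 in shWDR43, so Fbxo15 went from below Sall4 to above it in every library. The ratio of Fbxo15 to Dppa4 was 0.831 and 0.751 against 1.53 and 1.70. For each of these 2 ratios the exact two-sided permutation p was 0.333, the smallest that 2 against 2 libraries allow, and 0.467 after Benjamini-Hochberg adjustment over the 7 ratios computed.

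**Figure D2:**
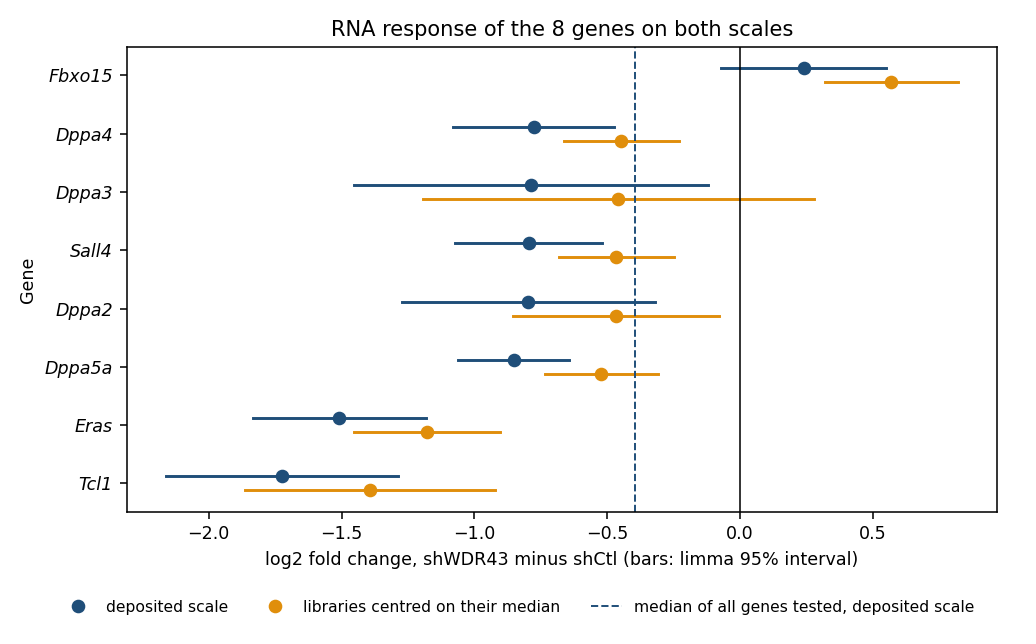
log2 fold change (shWDR43 minus shCtl) of each gene with limma 95% intervals, on the deposited scale (blue) and after centring each library on its median (orange), and the median of all genes tested (dashed, -0.39). Tcl1 and Eras lie lowest on both scales, and Fbxo15 alone lies above 0.

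All 7 genes other than Fbxo15 had both knockdown libraries below both controls, a pattern found in 63.6% of genes tested, and 12.6% of genes showed the pattern of Fbxo15. A knockdown mean under 50% of the control mean was found for Tcl1, Eras and Dppa3, against 14.5% of genes tested. The order of levels in shCtl was Dppa5a, Sall4, Dppa4, Fbxo15, Dppa2, Eras, Tcl1 and Dppa3. No neighbours in this order overlapped in their libraries. The means of Fbxo15 and Dppa2 differed by 9.8 FPKM, no more than the SD of 9.83 for Fbxo15, and those of Eras and Tcl1 differed by 3.1, slightly more than the SD of 2.97 for Eras. In shWDR43 Fbxo15 moved from the fourth to the second place, and the other 7 kept their order. In the authors' deposited table, the signed folds ran from -3.54 for Tcl1 and -3.03 for Eras to 1.18 for Fbxo15, and its unadjusted p-values were above 0.05 for Dppa3 (0.08) and Fbxo15 (0.09) and at most 0.04 for the other 6.

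The genes nearest to each in RNA level were found by Euclidean distance over the 4 log2(FPKM + 1) values, which reflects both level and change across only 4 libraries. Sall4 was nearest to Rbpms2 (distance 0.0704) and Vapa (0.0828), Dppa4 to Psmd13 (0.134) and Ilf2 (0.138), and Dppa5a to the ribosomal protein genes Rpl35 (0.145) and Rpl32 (0.204). Dppa2 was nearest to Utp3 (0.158) and Khdrbs1 (0.203), and Fbxo15 to Gtse1 (0.165) and Nmt1 (0.294). Eras was nearest to Rps6ka6 (0.217) and Osgep (0.253), Dppa3 to AK080222 (0.213) and BC029722 (0.254), and Tcl1, with the most distant nearest gene of the 8, to Crabp1 (0.367) and Emb (0.486).

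ChIP was deposited as lists of peaks with a score for each peak, given by the authors, and with every listed score at or above 50. A gene was counted as having a peak when a peak shared at least 1 bp with its locus extended by 1 kb on each side. The RNA table gives loci in mm9 without strand, so ends are named by low or high coordinate. The lists hold no counts, and no test was made between them. The lists differed in length: hypoP had 19542 and 19561 peaks in shCtl and 31473 and 24485 in shWDR43, Ser5P had 1879 and 2520 against 6535 and 7589, and Ser2P had 3878 and 4319 against 3501 and 3504. Scores are therefore read only within a list, and scores of different lists printed side by side are not a comparison. What the 2 ChIP libraries of a group replicate is not stated in the labels.

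The share of the 8 loci with a WDR43 peak was below that of tested genes in the DMSO, cFB-KI and FB lists. In the DMSO list 2 of 8 had one (Fbxo15 and Sall4), against 73.3% of genes tested. In the cFB-KI list only Fbxo15 had one, against 80.4%. In the FB list, the longest, 5 of 8 had one (Dppa2, Dppa5a, Tcl1, Fbxo15 and Sall4), against 84.2%. None of the 8 had a peak in the DRB list, where 12.8% of genes did, or in the ActD list, where 0.835% did. With shares this low, the lack of a peak at 8 loci says little. Short loci were hit less often: of the 4375 other tested genes with a locus no longer than that of Dppa4 (10558 bp), 58.2% had a DMSO peak, 66.1% a cFB-KI peak and 72.5% an FB peak. The 6 genes other than Fbxo15 and Sall4 are all in this length class. Over all tested genes, those with a cFB-KI peak were called lower in RNA in 44.0% of cases and those without in 37.5%, with median log2 fold changes of -0.40 and -0.38. For the FB list the shares were 44.5% and 33.6%, and for the DMSO list 44.5% and 37.9%. Genes without a peak had lower RNA levels, with a median of 4.5 FPKM against 9.08 for the cFB-KI list, and the part of level in these shares was not tested. Tcl1, Eras, Dppa2, Dppa4 and Dppa5a were each called lower with no WDR43 peak in the DMSO and cFB-KI lists. Of these, Tcl1, Dppa2 and Dppa5a had one in the FB list, and Eras and Dppa4 did not. Whether the RNA change depends on WDR43 at the locus was not tested.

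**Figure D3:**
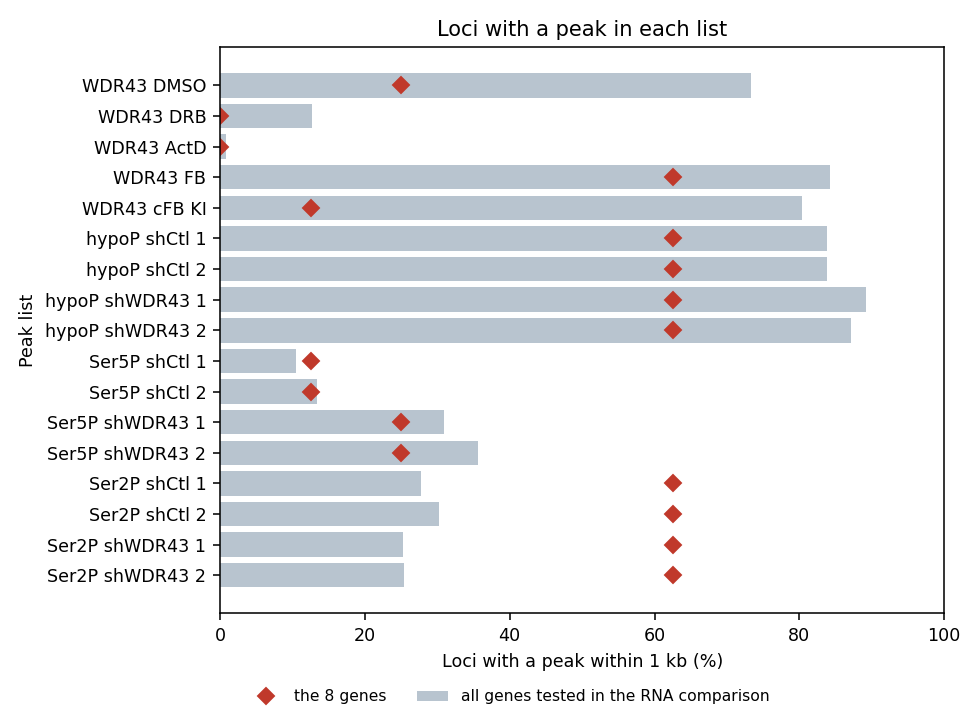
Percent of loci with a peak within 1 kb in each of the 17 lists, for the 8 genes (diamonds) and for all genes tested in the RNA comparison (bars). The diamonds lie below the bars in the DMSO, cFB-KI, FB and 4 hypoP lists and above the bars in the 4 Ser2P lists. In the DRB and ActD lists none of the 8 genes had a peak, where only 12.8% and 0.835% of tested genes did.

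Hypophosphorylated Pol II was listed at 5 of the 8 loci, Dppa2, Dppa4, Tcl1, Eras and Fbxo15, in each of the 4 hypoP libraries, and at none of Dppa3, Dppa5a and Sall4. The share of tested genes with a hypoP peak was 83.8% and 83.7% in the shCtl libraries (82.3% in both) and 89.2% and 87.1% in the shWDR43 libraries (86.3% in both). None of the 8 loci went from no hypoP peak in either shCtl library to a peak in both shWDR43 libraries, or the reverse, which 2.67% and 0.249% of tested genes did. Dppa5a and Sall4 were abundant RNAs without a listed hypoP peak: of 46 other genes at or above the control level of Dppa5a, 35 had one in both shCtl libraries, and of 653 at or above that of Sall4, 595 had one. Ser2P was listed at 5 of 8 loci in each shCtl library (Dppa2, Dppa5a, Tcl1, Eras and Fbxo15), against 27.8% and 30.2% of tested genes and 22.5% in both, and of genes at or above the level of Sall4 53.6% had it. In each shWDR43 library it was also listed at 5 of 8 (Dppa2, Dppa5a, Eras, Fbxo15 and Sall4), against 25.2% and 25.3% of tested genes and 19.9% in both. Ser5P peaks were fewer. In each shCtl library only Fbxo15 of the 8 had one, against 10.5% and 13.4% of tested genes and 4.22% in both. In shWDR43 library 1 Dppa5a and Sall4 had one and in library 2 Fbxo15 and Sall4, against 31% and 35.7% of tested genes, and only Sall4 had one in both, against 21.2%. None of the 8 had Ser5P in both shCtl libraries and in neither shWDR43 library, which 0.321% of tested genes did.

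The 2 genes that fell most, Tcl1 and Eras, had hypoP and Ser2P at opposite ends in shCtl, as had Dppa2 and Fbxo15. At Tcl1 (NM_009337, chromosome 12, 106454965 to 106460947, 5983 bp), the hypoP peak covered the high-coordinate end, the start of this minus-strand gene and the side of its printed promoter, with scores of 243.32 and 293.77 in shCtl and 322.42 and 131.03 in shWDR43. Ser2P lay beyond the low-coordinate end, the 3′ side, with scores of 81.02 and 95.13 in shCtl, and no Ser2P peak was listed within 1 kb in either shWDR43 library. Among tested genes 3.06% lost Ser2P in this way, with a peak in both shCtl libraries and in neither shWDR43 library. The hypoP peak stayed listed in all 4 libraries while the RNA fell to 28.0%. Its scores were at percentiles 53.5 and 60.2 of their own lists in shCtl and 54.4 and 33.2 in shWDR43. The only WDR43 peak at Tcl1 was in the FB list, with a score of 51.2, near the lowest of that list.

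At Eras (NM_181548, chromosome X, 7501402 to 7505733, 4332 bp), hypoP also covered the start at the high-coordinate end, with control scores of 123.04 and 117.14 and knockdown scores of 294.81 and 145.14. The Ser2P peak beyond the low end was listed in all 4 libraries, with scores of 95.16 and 71.45 in shCtl and 73.6 and 93.12 in shWDR43. It was kept at Eras while that of Tcl1 was not, although both RNAs fell. These Ser2P peaks lie over the neighbouring gene Pcsk1n, whose locus overlaps the low end of Eras by 135 bp, so they cannot be assigned to Eras alone. Pcsk1n RNA was low, at 1.4 and 2.3 FPKM in shCtl and 1.1 and 2.0 in shWDR43. No WDR43 list had a peak within 1 kb of Eras.

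Dppa4 and Dppa2 lie 15.981 kb apart on chromosome 16. At Dppa2 (NM_028615, 48310387 to 48319626) hypoP covered the low end, with scores of 128.81 and 82.73 in shCtl and 365.6 and 190.97 in shWDR43. Within their own lists these were at percentiles 31.0 and 16.1 in shCtl and 57.7 and 45.2 in shWDR43. Ser2P covered the high end of Dppa2 in all 4 libraries, with scores from 142.21 to 182.3. In both shWDR43 libraries, and in neither control, a further hypoP peak was listed at the high end, under the Ser2P peak, with scores of 139.57 and 100.37. At Dppa4 (NM_001018002, 48283848 to 48294405) hypoP was again at the low end, with scores of 106.61 and 139.79 in shCtl and 354.99 and 261.72 in shWDR43. Within their own lists these were at percentiles 24.8 and 32.9 in shCtl and 56.9 and 55.6 in shWDR43. No Ser2P or Ser5P peak was listed at Dppa4 in any library, although its RNA was more abundant than that of Dppa2. The only WDR43 peak within 1 kb of the pair was an FB peak beside the low end of Dppa2, with a score of 71.9.

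**Figure D4:**
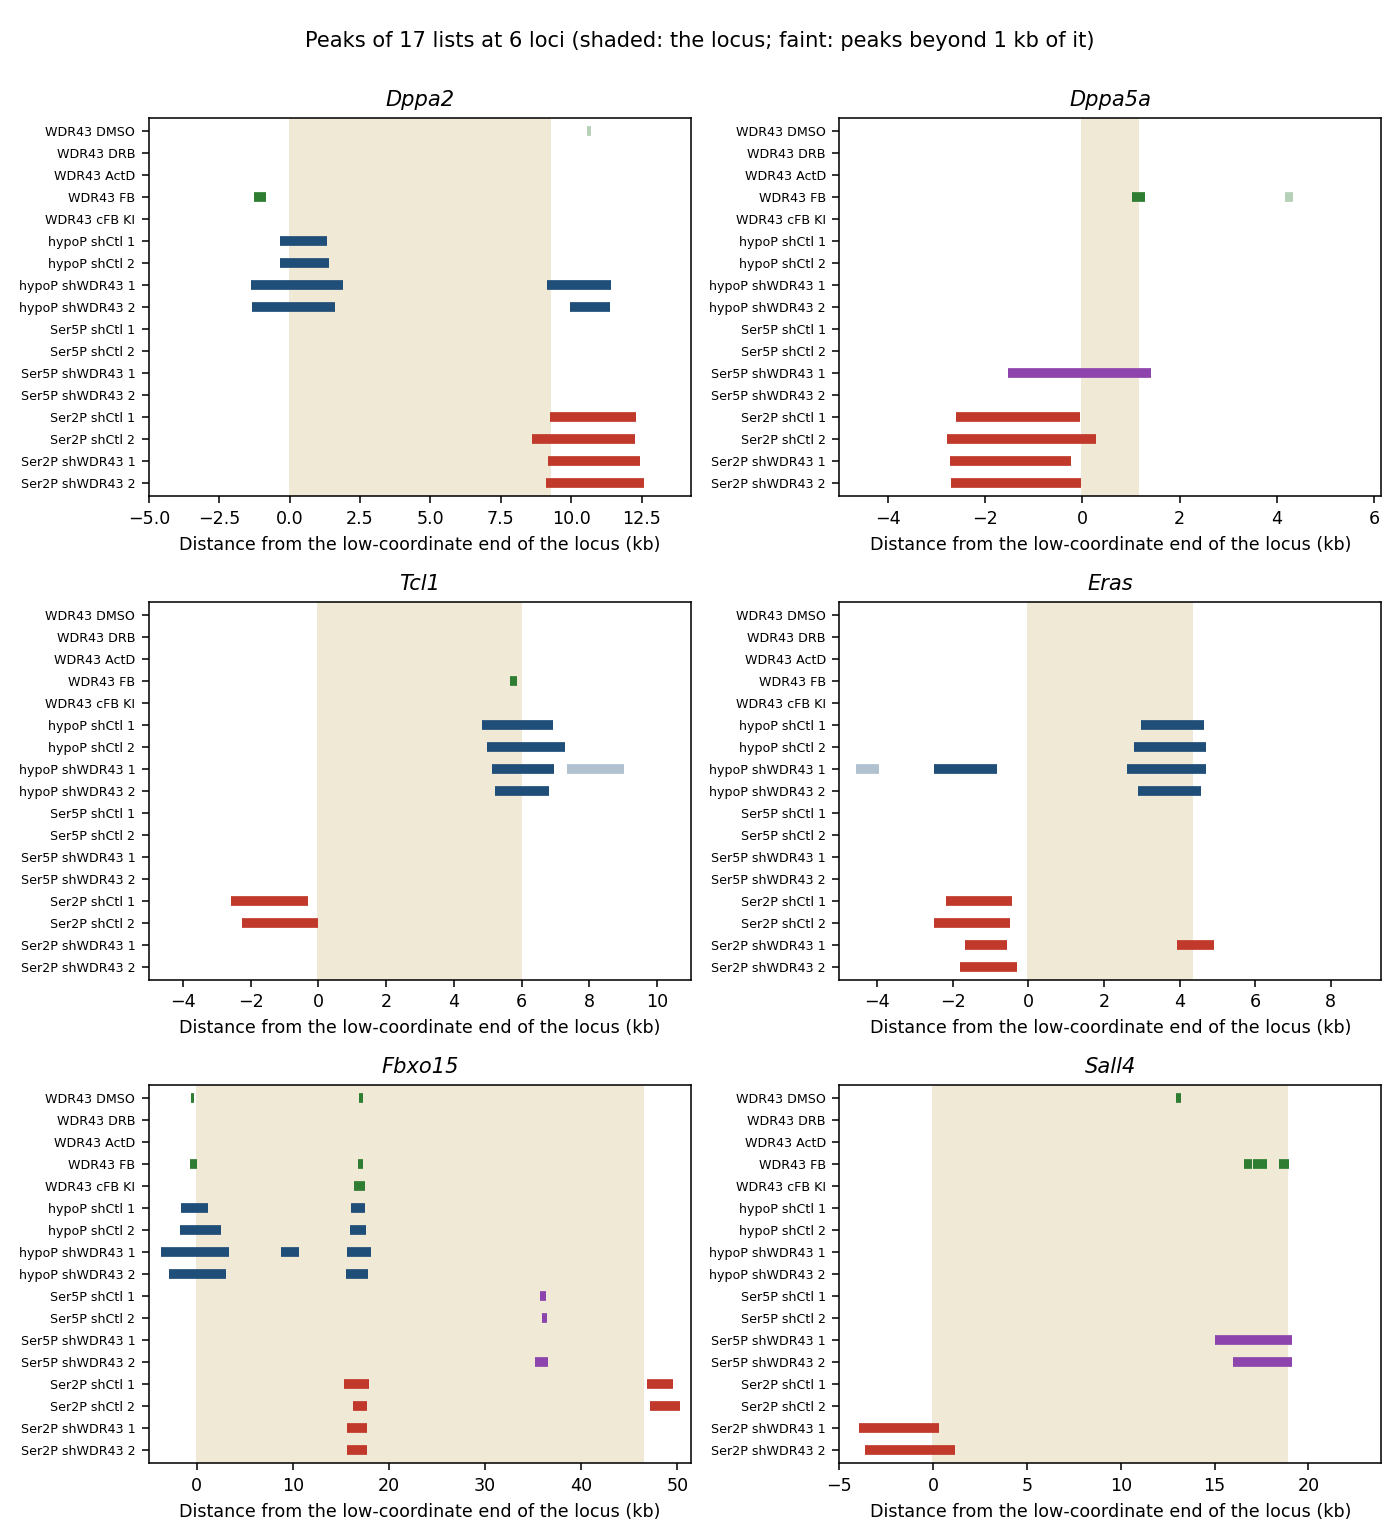
Peaks of the 17 lists (WDR43 green, hypoP blue, Ser5P purple, Ser2P red) at 6 loci, by distance in kb from the low-coordinate end of the locus (shaded). At Dppa2, Tcl1 and Eras the control hypoP and Ser2P peaks sit at opposite ends, and at Sall4 Pol II peaks appear only in the shWDR43 lists.

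Of the 8 loci, 6 were at least 4 kb long. Of loci of at least 4 kb with hypoP at 1 end only and Ser2P at 1 end only in both shCtl libraries, all 4 of the genes that qualified (Dppa2, Tcl1, Eras and Fbxo15) had them at opposite ends, against 77% of the 1358 tested genes that qualified. The Ser2P peaks at Eras lie over Pcsk1n, and 4 loci are too few to set this share apart from that of tested genes. In shWDR43 none of the 6 qualified. Of the 4 that did in shCtl, Tcl1 and Fbxo15 had no Ser2P peak at an end there. Dppa2 and Eras had peaks at both ends in at least 1 library. Of the 1061 tested genes that qualified there, 62.8% had them at opposite ends.

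Dppa5a (NM_025274, chromosome 9, 78214861 to 78216006) spans only 1146 bp. Ser2P was listed beside its low end in all 4 libraries, with scores of 281.6 and 254.21 in shCtl, above 95.4% and 94.5% of the peaks in their lists. In shWDR43 the scores were 123.53 and 112.91, above 75.4% and 70.6% of the peaks in theirs. A Ser5P peak was listed over the gene in shWDR43 library 1 and in none of the other 3 Ser5P libraries. The FB list held a WDR43 peak at the high end with a score of 54.52.

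Sall4 (NM_201396, chromosome 2, 168573832 to 168592701) had no Pol II peak of any form in the 6 shCtl libraries. In both shWDR43 libraries it had a Ser2P peak over the low end, with scores of 146.64 and 84.23, and a Ser5P peak over the high end, with scores of 83.21 and 68.29. Gaining Ser2P in this way was found for 1.3% of tested genes and gaining Ser5P for 11.4%. Sall4 RNA, measured in other libraries of the same conditions, was lower in shWDR43. The noncoding gene AK052878 overlaps the high end of Sall4, from 17.811 to 19.777 kb, so the Ser5P peaks and the FB peak there cannot be assigned to Sall4 alone. The Ser5P lists were longer after knockdown, and the part of that in the gained Ser5P peak was not tested. The Ser2P lists were shorter. WDR43 peaks lay near the high end in the FB list, with scores of 142.25, 132.22 and 144.99, and inside the locus in the DMSO list, with a score of 50.03.

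Fbxo15 (NM_015798, chromosome 18, 85104417 to 85150784, 46368 bp) is the longest of the loci and had a peak in 14 of the 17 lists. The other genes had peaks in 9 lists (Dppa2), 8 (Eras), 7 (Tcl1), 6 (Dppa5a), 6 (Sall4), 4 (Dppa4) and none (Dppa3), against a median of 8 for tested genes, 5.74% of which had none. At the low end of Fbxo15, hypoP was listed in all 4 libraries beside WDR43 peaks of the DMSO list (score 60.49) and the FB list (150.54). These hypoP peaks were at percentiles 44.2 and 39.5 of their own lists in shCtl and 41.2 and 36.9 in shWDR43. The site with most lists lay inside the locus, 15.354 to 18.091 kb from the low end, with peaks in 11 lists: 3 of WDR43, 4 of hypoP and 4 of Ser2P. Its WDR43 scores were 85.21 in the DMSO list, 103.67 in FB and 154.41 in cFB-KI, and its hypoP scores ran to 266.8 and 221.9 in the control lists and to 873.93 and 413.4 in the longer knockdown lists. This site overlaps another gene, Timm21, which encodes a mitochondrial import protein and lies within Fbxo15 from 12.269 to 16.5 kb, so its peaks cannot be assigned to Fbxo15. Timm21 measured 21.2 and 22.3 FPKM in shCtl and 10 and 7.1 in shWDR43 and was called lower (log2 fold change -1.27 ± 0.17, limma adjusted p = 0.00217), opposite in sign to Fbxo15. The cFB-KI and Ser2P shWDR43 peaks at Fbxo15 are all at this shared site. A Ser2P peak beyond the high end was listed in both shCtl libraries, with scores of 72.97 and 55.29, and in neither shWDR43 library, although Fbxo15 RNA was not lower there. Ser5P was listed at 35.15 to 36.538 kb in both shCtl libraries, with scores of 71.1 and 56.5, and in shWDR43 library 2, with a score of 51.17.

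Dppa3 (NM_139218, chromosome 6, 122576442 to 122580289) had no peak within 1 kb in any list. The nearest were a DMSO peak that ended at -1.557 kb from the low end and, beyond the high end, an FB peak and a hypoP peak of shWDR43 library 1. Over all 8 genes and 17 lists, 54 of 136 combinations had a peak, and 8 of the 40 with a WDR43 list.

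**Figure D5:**
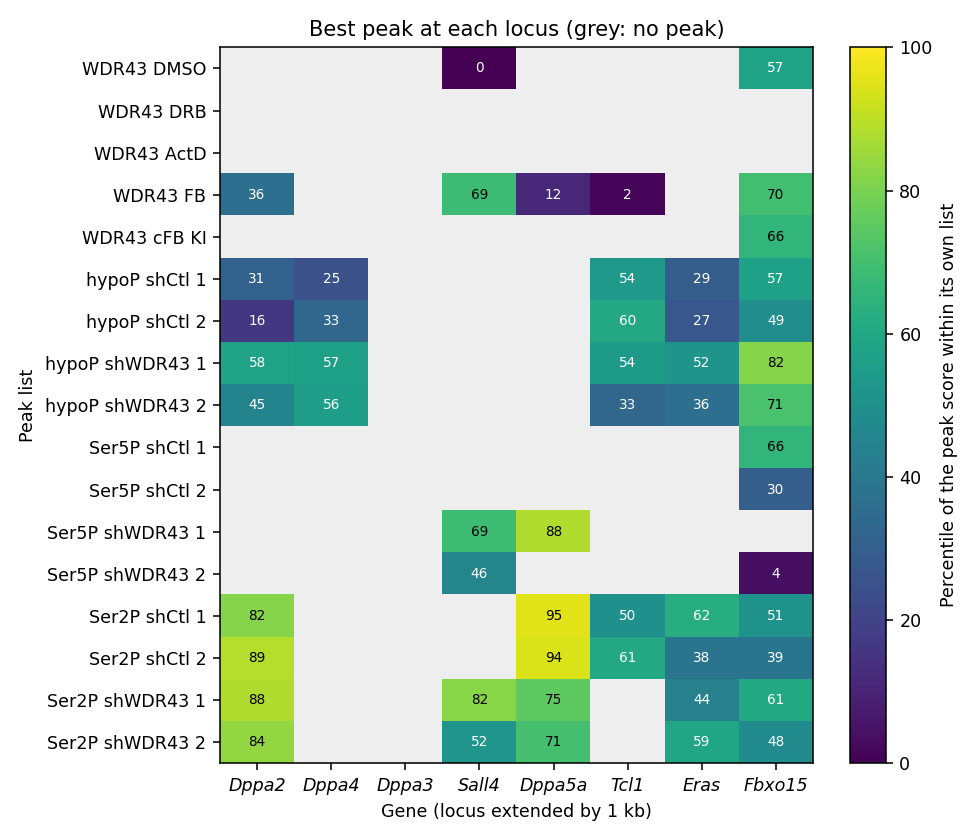
Percentile, within its own list, of the highest-scoring peak within 1 kb of each locus, for the 17 lists (rows) and 8 genes (columns), with grey where no peak was listed. Dppa3 is grey throughout, the DRB and ActD rows are empty, and the Ser2P peaks of Dppa2 and Dppa5a in shCtl rank between 82.0 and 95.4.

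Genes that work with the 8 were followed as lists. The partners and relatives of Sall4, the Sall family and the NuRD complex, were called lower in 13 of 17 cases and higher in none (median log2 fold change -0.49), against 42.7% lower and 6.1% higher among all tested genes. They ran from Cdk2ap1 (-1.21) and Sall1 (-1.13), which were called lower, to Mbd2 (-0.21) and Sall3 (-0.11), which did not pass. On the centred scale 6 were lower and none higher, where 20.9% of all tested genes were lower and 13% higher. The SCF core and other F-box genes, to which Fbxo15 belongs, were lower in 14 of 19 (median -0.58), against 42.7% of all tested genes, led by Skp2 (-1.66), which targets cell cycle inhibitors, and Fbxo5 (-1.47), an inhibitor of the anaphase-promoting complex. Fbxw7 was the only gene of this list with a positive value, 0.21, which did not pass. After centring 7 of this list were lower and 1 higher.

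The Tcl1 family and the PI3K-AKT-mTOR pathway, in which Tcl1 and Eras act, held 22 tested genes. Of these 6 were called lower (42.7% of all tested genes), 1 higher and 15 did not pass, with a median of -0.26, nearer 0 than the -0.39 of all genes. Pik3cd (-0.73), a catalytic subunit of PI3 kinase, was called lower, and Foxo3, a transcription factor held back by AKT, was called higher at 0.84, from 13.4 and 10.3 FPKM in shCtl to 23.1 and 20.6 in shWDR43. On the centred scale 1 of the list was lower and 3 were higher. Pik3cd was not the lower one: it was at -0.40 and did not pass (limma adjusted p = 0.213). Its level was low, at 2.3 and 3.6 FPKM in shCtl and 1.5 and 1.2 in shWDR43. The Tcl1 relatives Tcl1b1, Tcl1b3, Tcl1b4 and Tcl1b5 were listed at 0 in all 4 libraries.

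DNA methylation genes, the setting in which Dppa3 acts, were lower in 9 of 10 (median -0.76), against 42.7% of all tested genes, with Dnmt3a at -1.67 and Dnmt3b at -1.57, both de novo methyltransferases, and Tet3 at -0.14, which did not pass. After centring 6 were lower and none higher. Germline genes were lower in 5 of 18 tested and higher in 1, with a median of -0.31, against 42.7% lower and 6.1% higher of all tested genes. Centred, 2 were lower and 1 higher. Syce1 (-1.27) and Rpl10l (-0.75) were called lower and Taf7l (0.67) higher.

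Other transcripts associated with ES cells were lower in 10 of 17 and higher in none (median -0.68), against 42.7% lower among all tested genes, from Tdgf1 (-2.16), the Nodal co-receptor, and L1td1 (-1.58) to Jam2 (0.30) and Pecam1 (0.36), which did not pass. On the centred scale 8 were lower and 3 higher. Pluripotency transcription factors were lower in 13 of 18 (median -0.56), against the same 42.7%, with Prdm14 (-1.41) and Nr0b1 (-1.32) lowest, and Stat3 and Tbx3, both at -0.21, not passing. After centring 7 were lower and none higher. Tcl1 at -1.72 was thus lower than all tested genes of these 7 lists but Tdgf1.

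Markers of cell identity were followed as further lists. All ES cell markers but Fgf4 are also in the lists of the preceding paragraph, so their counts are not independent of those. The 8 ES cell markers summed to 2762 and 2781 FPKM in shCtl and 1455 and 1290 in shWDR43, and 7 of them were called lower (median -0.93; 5 after centring), against 42.7% of all tested genes (20.9% after centring). The 12 primitive endoderm markers summed to 42.9 and 45.9 against 66.7 and 75.4. Of 7 tested, 3 were called higher (6 after centring), against 6.1% of all tested genes (13% after centring). Much of this sum came from the collagen genes Col4a1, from 13 and 14 FPKM to 25.4 and 29.5, and Col4a2, from 4.6 and 5.1 to 11 and 13.4. Gata6 went from 0.6 and 0.6 FPKM to 1.9 and 1.3, Gata4 from 1.2 and 1 to 1.6 and 2.2, and Sox17 from 0.1 and 0 to 0.4 and 0.3. Sox7, too low to be tested, went the other way, from 0.8 and 1.2 FPKM to 0.3 and 0.4. Afp and Foxa2 stayed at or below 0.1. The 10 trophectoderm markers summed to 19.7 and 17.9 against 27.1 and 35.0, with 3 of 6 tested called higher and 1 lower (4 and none after centring). The keratin genes Krt19 (1.28) and Krt7 (1.27) had the highest log2 fold changes. Tead4 (-0.57) was the gene called lower, and Eomes (-0.55) did not pass. Cdx2 stayed at or below 0.3 FPKM and Elf5 at or below 0.1. The 14 fibroblast markers summed to 39.5 and 50.4 against 46.0 and 78.6, with 1 of 9 tested called lower and none higher (1 and 1 after centring). Col1a1 went from 12.3 and 18.4 FPKM to 17.9 and 30.9, and Col1a2 from 12.9 and 16.1 to 16.4 and 28.8. Neither passed on the deposited scale, and Col1a2 was the gene called higher after centring (limma adjusted p = 0.0467). Thy1, the gene called lower, went from 3.6 and 5.2 FPKM to 1 and 1.2. Lum and Dcn were at 0 in all libraries. The 8 neuroectoderm markers summed to 89.1 and 85.0 against 47.6 and 41.6, with 4 of 6 tested lower (3 after centring), and of the 7 mesoderm markers 1 was tested and did not pass. The part of these shifts in the changes of the 8 genes was not tested.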

How the data were processed

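RNA values are FPKM per gene as the authors deposited them, in 1 table of 38582 genes with no counts. FPKM is inferred from Cufflinks, which the submitters' processing notes list beside TopHat, Bowtie2 and mm9, in no stated role. The table is named as spike-in RNA-seq, but no label states how it was scaled. It holds no spike-in rows, and strand was not stated to be used in counting. The deposited table also gives the authors' signed fold and unadjusted p-value per gene. The 17 peak lists carry a score per peak, given by the authors. Per the file headers, the 2 RNA libraries of a group are biological replicates, and nothing more is said of their source. The p-values set a group difference against a variance between these libraries that limma moderates over all genes tested.

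RNA was tested with limma 3.58.1 (R 4.3.3, intensity trend) on log2(FPKM + 1) for genes with a mean of at least 1 FPKM, with Benjamini-Hochberg adjustment over the 12452 genes tested and a threshold of 0.05. The fold change understates that of low genes. The test was checked on simulated data. Replicate numbers did not pair the libraries, and no block was used. Peaks were joined to loci extended by 1 kb, with at least 1 shared bp. Alternatives changed the pseudocount, filter, centring, trend, block, libraries, flank, overlap and score minimum. The members and lists were chosen with earlier results of these data known. The rule for naming covered all 8 genes, the 2 lowest and 2 highest of each list, the 2 nearest genes by RNA level and the neighbouring loci. Not every lowest or highest gene of a list is named in the text, and some marker genes outside the rule are. A gene that this rule names is not reported here. In all, 6 samples were not analysed here.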

Additional observations from a re-analysis of the deposited data

How the results depend on the processing

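The number of libraries, 2 in each group, limits the RNA test. Leaving out any 1 library left from 0 to 0 genes called lower among the 8 (limma, Benjamini-Hochberg), with 5 to 7 of them at an unadjusted p under 0.05, and no gene was called in the whole table. The 8 log2 fold changes kept their sign in each such fit, and the adjusted p of the 6 called genes ranged from 0.0617 to 0.241. Without the filter on low values 2 of the 8 were called lower, and 633 of all 38582 genes. After centring 1 of the 8 was called higher. Dppa3 passed with a pseudocount of 5 (adjusted p = 0.0469), without the intensity trend (0.0473) and with the replicate block (0.0265). The replicate block called 7 of the 8 lower and none higher, and 5926 and 840 genes in all. The deviations of libraries numbered 1 correlated at 0.05 over genes, so the number was not taken to pair them. With a score of at least 100, the count of loci fell to 0 for Ser5P in shCtl, 0 for Ser5P in shWDR43, 2 for Ser2P in shCtl, 2 for Ser2P in shWDR43, 0 for WDR43 in DMSO and 2 in FB. With loci not extended, Ser2P was listed at 2 loci in shCtl and 3 in shWDR43, and with 50% of the peak inside at 1 and 1. With 5 kb on each side the DMSO list reached 4 loci. With either shWDR43 library alone Ser5P was listed at 2 loci (range 2 to 2). No value reversed. For 59 alternative values the counts stayed within 1.5 times of those reported, and for 19 they did not; the cause was not tested.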

Other observations

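The nearest tested genes lying wholly on either side of the 8 loci, other than the 8 themselves, numbered 14. Genes that overlap a locus, as Pcsk1n does Eras and Timm21 does Fbxo15, were left out of this count. Of these 8 were called lower, 2 higher and 4 did not pass (limma), against 42.7% lower and 6.1% higher among all tested genes. The lower ones were Morc1 (log2 fold change -1.38) near Dppa2, Pvrl3 (-0.97) near Dppa4, Gdf3 (-0.68) near Dppa3, Gsta4 (-0.64) and Ooep (-0.95) near Dppa5a, Glrx5 (-0.54) near Tcl1, and Cyb5 (-0.80) and Socs6 (-0.50) near Fbxo15. Distances ran from 1.514 kb for Hdac6 to 3886 kb for Socs6. Nanog (-0.33, near Dppa3), Atg2b (-0.16, near Tcl1), Timm17b (-0.37, near Eras) and Zfp64 (-0.24, near Sall4) did not pass. Both genes called higher had the opposite sign to the gene beside them, as had Cyb5 and Socs6 beside Fbxo15. Atp9a, 6.531 kb from the low end of Sall4, measured 7.9 and 8.1 FPKM in shCtl and 15.2 and 13.8 in shWDR43 (0.78, limma adjusted p = 0.00411). Hdac6, 1.514 kb beyond the start of Eras, changed by 0.54 (limma adjusted p = 0.0209). The hypoP peaks at the high end of Eras stop short of the Hdac6 locus.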
